A study of Homo sapiens with 6 samples.

Results

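SU-DHL-2, an established line of human diffuse large B-cell lymphoma (DLBCL), carried measurable mRNA of genes that are best known from the lining of blood vessels, and the levels of 5 of these genes were lower after IL-17A. The 10 genes described here are the endothelial-type surface and secreted genes CLEC14A, EMCN, CDH5, PECAM1, EGFL7 and MMRN1, the receptor kinases TIE1 and KDR, and the transcription factors SOX17 and SOX18. They are 10 of the 19740 genes that could be named on the arrays, and 12 probes measured them through their RefSeq accessions. The 10 genes were selected on their values in these same 6 arrays, so their levels and changes are a description and no p-value is given for them. Cells were kept for 72 h with IL-17A at 200 pg/ml (3 samples) or without it (3 control samples), and 1 Cy3 array was run per sample. All samples were of the same single cell line, in a medium with serum, and the labels do not say whether the 3 samples of a group were started from separate cultures. P-values therefore measure the spread between these samples, which may be technical.

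Endothelial cells are held together by the adhesion proteins VE-cadherin (CDH5) and CD31 (PECAM1), carry sialomucins and C-type lectin domain proteins on their surface, and respond to VEGF through KDR. SOX17 and SOX18, with SOX7, form the SOXF group of transcription factors, which act in arterial and lymphatic development together with factors of the ETS family such as ERG and FLI1. Several of these genes are not restricted to vessels. PECAM1 is also found on platelets and leukocytes, including B cells, and MMRN1 is stored in platelets as well as in endothelial cells.

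The values are background-subtracted intensities, quantile normalized and given on the log2 scale, so that a difference of 1 is a doubling. A probe was taken as above background on an array when the extraction software marked its signal as positive, significant and well above background. The lowest normalized signal that counted as well above background was 1.86 to 2.11 (log2) across the arrays. A gene was tested with limma when a probe was above background on at least 3 of the 6 arrays, and it was called when the fold change was at least 1.5 with an unadjusted p under 0.05. The headers placed the 3 control arrays and IL-17A replicate 1 in 1 scan and IL-17A replicates 2 and 3 in another, so scan and treatment overlap in part. The part of the scan in the differences was not tested beyond the values that follow for each scan.

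Of the 10 genes, 9 were above background on all 3 control arrays, 6 of them on all 6 arrays, and KDR on no array. Being above background was common, since 14747 of the 19740 named genes had a tested probe. The median log2 signal of all tested genes was 7.84, and all 9 genes lay below it, the highest being PECAM1 (7.49 in the controls). Of the 9 tested genes, 5 were called lower with IL-17A (EGFL7, EMCN, SOX17, MMRN1 and CLEC14A) and 0 were called higher. Of all 14747 tested genes, 1.11% were called lower and 0.814% higher. Since the genes were selected on this contrast, nothing is read from the count beside that background. The median log2 fold change was -0.81 over the 9 tested genes and 0.0032 over all tested genes. All 9 values were below 0, as were 49.1% of the values of all tested genes. In 7 of the 9, every IL-17A array lay below every control array, which held for 19.3% of all tested genes. By fold alone, CLEC14A (-0.81) was the called gene nearest to the 1.5-fold threshold. SOX18 (-0.71) was past that fold but missed the threshold on p, with an SE of 0.37, and CDH5 (-0.30) was the next below the fold.

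**Figure D1:**
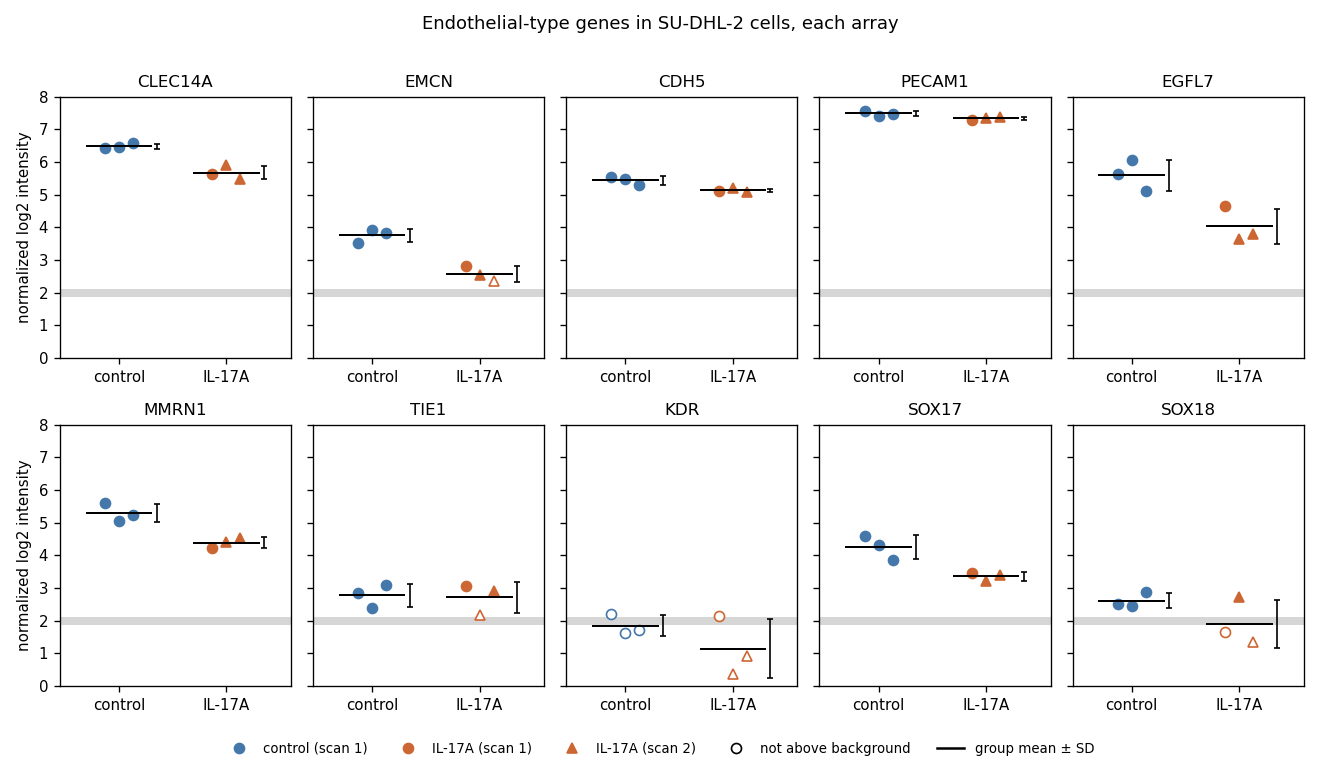
Normalized log2 intensity of each of the 10 genes on each array, with control and IL-17A on the horizontal axis, circles for arrays of scan 1, triangles for scan 2, open symbols for signals not above background, a line with a bar for the group mean ± SD, and a grey band for the lowest signal well above background (1.86 to 2.11). CLEC14A, EMCN, EGFL7, MMRN1, SOX17, CDH5 and PECAM1 had every IL-17A array below every control array, and KDR had only open symbols.

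Promoter sequence is shown for 3 of the called genes, because genes that were lower together may be compared in the letters next to their starts. Windows of 250 bases before to 50 bases after a start were taken from the RefSeq promoter table used here (GRCh38.p14). There were 8 in all, for 6 of the 10 genes. No window was used for SOX17, SOX18, CDH5 and PECAM1, so the letters next to their starts were not examined. The windows were searched on both strands for the ETS-type letters CAGGAA and CCGGAA and for the SOX-type letters AACAAT and ACAAAG, which are marked in capitals as they or their reverse complements occur, and no matches overlapped. The windows are CLEC14A chr14:38256044-38256343 (minus strand), EMCN chr4:100517973-100518272 (minus strand), and EGFL7 chr9:136658606-136658905 and chr9:136662666-136662965 (plus strand), each written 5′ to 3′ in the direction of the gene.
CLEC14A: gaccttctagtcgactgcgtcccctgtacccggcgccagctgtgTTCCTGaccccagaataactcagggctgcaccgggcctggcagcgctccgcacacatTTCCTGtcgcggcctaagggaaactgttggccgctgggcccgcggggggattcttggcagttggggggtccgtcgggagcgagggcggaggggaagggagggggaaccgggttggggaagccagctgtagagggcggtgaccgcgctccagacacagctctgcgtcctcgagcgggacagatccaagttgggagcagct
EMCN: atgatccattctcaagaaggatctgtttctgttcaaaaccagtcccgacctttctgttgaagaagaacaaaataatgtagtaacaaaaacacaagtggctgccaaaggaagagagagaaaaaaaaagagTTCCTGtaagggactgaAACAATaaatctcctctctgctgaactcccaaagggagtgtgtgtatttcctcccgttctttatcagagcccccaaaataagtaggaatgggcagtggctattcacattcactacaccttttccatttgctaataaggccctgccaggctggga
EGFL7, first window: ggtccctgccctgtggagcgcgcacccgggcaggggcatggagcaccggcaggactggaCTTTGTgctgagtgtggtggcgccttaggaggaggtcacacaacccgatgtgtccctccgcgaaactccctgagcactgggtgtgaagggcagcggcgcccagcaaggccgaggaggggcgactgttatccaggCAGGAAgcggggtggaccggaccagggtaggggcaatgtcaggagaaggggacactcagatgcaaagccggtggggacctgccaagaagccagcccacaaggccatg
EGFL7, second window: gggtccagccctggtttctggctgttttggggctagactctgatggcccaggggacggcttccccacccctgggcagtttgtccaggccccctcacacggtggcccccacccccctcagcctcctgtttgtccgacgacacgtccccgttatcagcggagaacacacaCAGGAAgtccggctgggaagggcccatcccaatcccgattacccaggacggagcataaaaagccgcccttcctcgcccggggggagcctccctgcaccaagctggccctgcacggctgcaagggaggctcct
The CLEC14A window held 2 ETS-type matches and 0 SOX-type matches. The EMCN window held 1 of each kind. The first EGFL7 window held 1 of each kind, and the second held 1 ETS-type match. Of the windows not printed, MMRN1 had 4 ETS-type matches and 1 SOX-type match in its window at chr4:89894604-89894903 and none in the other at chr4:89879261-89879560, both on the plus strand. TIE1 had none, and KDR had 1 SOX-type match. Among all 35116 RefSeq windows of this length, 41.4% held an ETS-type match and 23.9% a SOX-type match, so such matches are common, and a match is a description of the letters only.

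CLEC14A was 1.75-fold lower with IL-17A, with almost the same difference in both scans. It is a C-type lectin domain protein of the endothelial surface that takes part in vessel sprouting. Its log2 intensity was 6.44, 6.45 and 6.57 on the control arrays and 5.64, 5.90 and 5.49 on the IL-17A arrays. All IL-17A arrays were lower than all controls, with a gap of 0.54 between the groups. The means were 6.49 ± 0.07 and 5.68 ± 0.21 (SD, n = 3 per group), a log2 fold change of -0.81 (SE 0.11). IL-17A replicate 1, scanned with the controls, differed from them by -0.84, and the mean of the other IL-17A arrays by -0.79.

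EMCN encodes endomucin, a sialomucin of venous and capillary endothelium. Its log2 intensity was 3.53, 3.90 and 3.83 in the controls and 2.82, 2.53 and 2.35 with IL-17A. The groups did not overlap (gap 0.70), and the lowest array, IL-17A replicate 3, was not above background. The difference of -1.19 (SE 0.16), or 2.28-fold lower, therefore ended close to the detection limit. It was -0.93 for the IL-17A array of scan 1 and -1.31 for those of scan 2.

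CDH5 and PECAM1, the adhesion molecules of endothelial junctions, had the smallest differences among the surface genes. CDH5 read 5.55, 5.48 and 5.29 in the controls and 5.12, 5.19 and 5.10 with IL-17A. The groups were separate, but the log2 fold change of -0.30 (SE 0.08), or 1.23-fold lower, stayed below the 1.5-fold threshold, so CDH5 was not called. PECAM1 had 3 probes, all above background on every array, and none was called. On the probe with the highest signal, the controls read 7.57, 7.41 and 7.48 and the IL-17A arrays 7.29, 7.34 and 7.36, a narrow difference of -0.16 (SE 0.05) without overlap.

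The other PECAM1 probes had groups that overlapped. On A_33_P3229402 the controls read 5.62, 6.09 and 5.93, and the IL-17A arrays 6.33, 5.29 and 5.47. IL-17A replicate 1 was thus the highest of all 6 arrays on this probe while IL-17A replicates 2 and 3 were the lowest, which gave 0.45 within scan 1, -0.50 for scan 2 and -0.18 (SE 0.30) over all arrays. On A_33_P3405213 the controls read 5.62, 5.55 and 5.71, and the IL-17A arrays 5.38, 5.49 and 5.65, a difference of -0.12 (SE 0.08). The 3 probes thus gave the same sign over all arrays, with differences of -0.12 to -0.18, but not the same sign within scan 1.

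**Figure D2:**
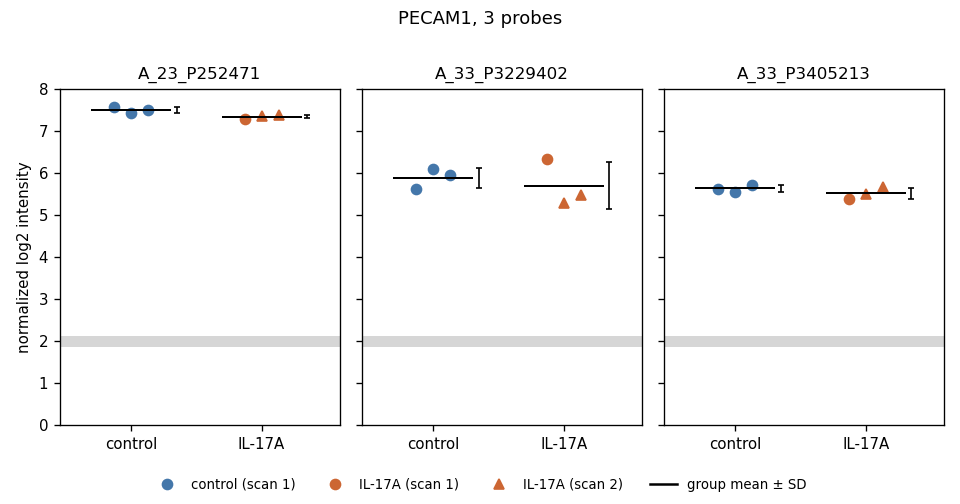
Normalized log2 intensity of the 3 PECAM1 probes on each array, with control and IL-17A on the horizontal axis, symbols for group and scan, a line with a bar for the group mean ± SD, and a grey band for the lowest signal well above background. The first probe had all IL-17A arrays below the controls, and on the second the IL-17A array of scan 1 lay at 6.33, above every other array.

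Of the secreted proteins, EGFL7 had the largest difference of the tested genes described here. EGFL7 is a matrix-bound factor that endothelial cells secrete during vessel formation, and its gene is the host of miR-126. Its log2 intensity was 5.63, 6.05 and 5.10 in the controls and 4.64, 3.65 and 3.79 with IL-17A. The groups did not overlap (gap 0.46), although both were spread, with means of 5.59 ± 0.48 and 4.03 ± 0.53 (SD, n = 3 per group). The log2 fold change was -1.57 (SE 0.35), or 2.96-fold lower. The arrays of scan 2 carried most of it, with -1.87, whereas the 1 IL-17A array in the scan of the controls gave -0.95. That value rests on 1 array, which has no spread of its own.

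MMRN1 encodes multimerin 1, a large soluble protein that binds coagulation factor V. Its log2 intensity was 5.60, 5.05 and 5.22 in the controls and 4.22, 4.42 and 4.54 with IL-17A. Every IL-17A array was lower than every control, with a gap of 0.51. The log2 fold change was -0.90 (SE 0.16), or 1.87-fold lower, and it was -1.07 within scan 1 and -0.81 for scan 2.

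SOX17 was lower with IL-17A, and SOX18 was near background in both groups. SOX17 is known for endoderm and arterial endothelial specification, and SOX18 for lymphatic vessel development. SOX17 read 4.60, 4.31 and 3.86 in the controls and 3.47, 3.21 and 3.39 with IL-17A. The IL-17A arrays were close together and all lower, with a gap of 0.39. The log2 fold change was -0.90 (SE 0.20), or 1.87-fold lower. The 1 IL-17A array of scan 1, which has no spread of its own, gave -0.79. The IL-17A arrays of scan 2 gave -0.95.

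SOX18 read 2.51, 2.46 and 2.88 in the controls, all above background. With IL-17A it read 1.65, 2.74 and 1.35, of which only IL-17A replicate 2 was above background. That array lay within the range of the controls, so the groups overlapped. The log2 fold change of -0.71 (SE 0.37) was not called. The gene passed the filter through the controls, and without IL-17A replicate 2 no IL-17A array was above background, so no fold change is given for that setting. In the authors' normalized table, which has a floor on low values, the log2 fold change was -0.23.

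The receptor kinases showed no call. TIE1, an orphan receptor that modulates angiopoietin signaling, read 2.85, 2.39 and 3.10 in the controls and 3.06, 2.18 and 2.92 with IL-17A. The groups overlapped, although IL-17A replicate 2, which was not above background, was the lowest of all arrays. The log2 fold change of -0.06 (SE 0.29) was 0.28 within scan 1 and -0.23 for scan 2. KDR, the main signaling receptor for VEGF-A, read 2.21, 1.62 and 1.71 in the controls and 2.13, 0.36 and 0.93 with IL-17A, none of them above background. It was not tested, no fold change is given for it, and in the authors' normalized table it stood at the floor on 6 of 6 arrays.

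The scan that held both groups had only 1 IL-17A array. A fit within it takes a gene's spread from the 3 controls, drawn by limma toward that of all tested probes. It assumes that the lone array varies like the controls. In that fit 4 of the 9 tested genes were called lower (CLEC14A, EMCN, MMRN1 and SOX18, the last on an array not above background), against 2.14% of all tested genes. With scan as a block the log2 fold changes are those of the same lone array, since the other scan held no control, and only the SE differs. Then 4 were called (CLEC14A, EMCN, SOX17 and MMRN1), against 1.93% of all tested genes. The genes were selected on the same arrays, and nothing is read from these counts. Of the 5 called genes, 3 (EMCN, EGFL7 and SOX17) were further from the controls in scan 2 than in scan 1, while CLEC14A and MMRN1 were not. When limma's p was adjusted by Benjamini-Hochberg across the tested probes and the 1.5-fold threshold kept, 3 of the 9 passed (CLEC14A, EMCN and MMRN1), against 0.305% of all tested genes.

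**Figure D3:**
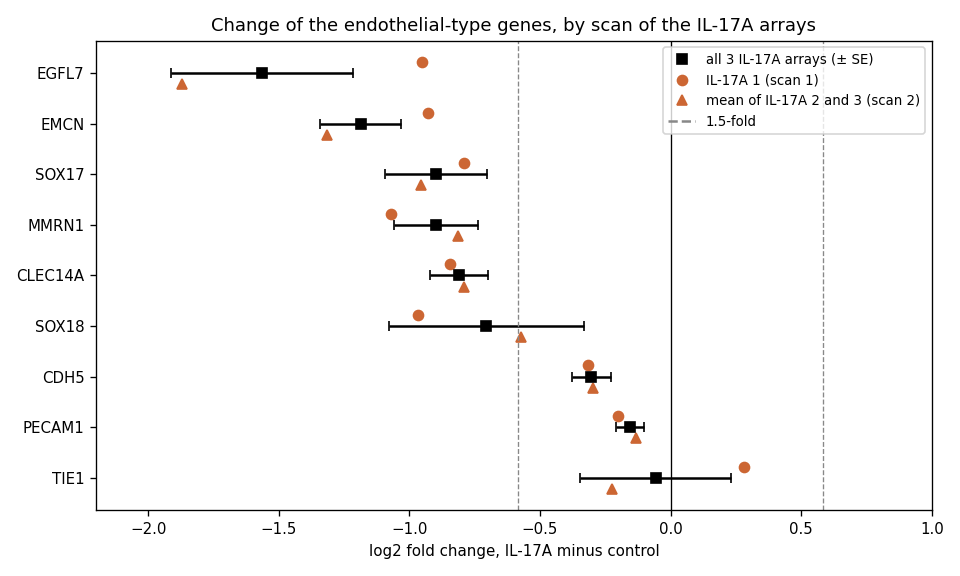
Log2 fold change (IL-17A minus control) of the 9 tested genes, with squares ± SE for all 3 IL-17A arrays, circles for IL-17A replicate 1 in the scan of the controls, triangles for the mean of the other IL-17A arrays, and dashed lines at 1.5-fold. The circles of the 5 called genes lay between -1.07 and -0.79, and the circle of TIE1 lay at 0.28.

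Endothelial genes beyond these 10 were looked at as a list of 80, made of surface and secreted proteins, transcription factors, and VEGF and angiopoietin ligands and receptors. Genes that the study names for these arrays were kept out of it, such as ADGRL4. Its counts and median are thus not independent of these data, and nothing is read from them beside the 10 genes. Of these, 58 were tested, 1 was called lower (NR2F2) and 0 higher. The median log2 fold change of the 58 was -0.10, beside 0.0032 over all tested genes. Below 0 were 35 and above it 23, while 49.1% of all tested genes were below 0. Of the 79 on the arrays, 50 were above background on all 6 arrays, among them the endothelial markers VWF, TEK, ESAM, NOS3, CLDN5 and ROBO4, which were picked for naming with their values in view. On no array above background were 12, namely ERG, SOX7, PROX1, SELE, DLL4, STAB1, RAMP2, ANGPT1, FOXC2, FOXF1, GJA5 and VEGFD. The summed signal of the 79 genes on the arrays was 21966 to 22457 on the IL-17A arrays and 20760 to 21240 on the control arrays. Its largest parts were VEGFB (mean signal 6471 with IL-17A, 6328 in the controls), ICAM2 (4826 and 4296) and FLI1 (3075 and 2828). All sums given here and below are over the genes of a list that are on the arrays, tested or not.

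NR2F2, a nuclear receptor of venous endothelial identity, changed by -0.81 (SE 0.30, limma adjusted p = 0.138). It read 4.77, 4.58 and 4.76 in the controls and 4.59, 3.58 and 3.51 with IL-17A. The IL-17A array in the scan of the controls lay within their range and gave -0.11, so the call rested on the arrays of scan 2. Of the surface list, 0 of 33 were called. Its brightest genes were ICAM2 (0.17, SE 0.05), PODXL (0.11, SE 0.05), NOTCH4 (-0.25, SE 0.05) and ARHGEF15 (-0.36, SE 0.04), given as log2 fold changes. Below 1.5-fold, 5 genes of the list passed a limma adjusted p under 0.05. They were NOTCH4 (adjusted p = 0.0450), ARHGEF15 (adjusted p = 0.0313) and KLF2 (-0.27, adjusted p = 0.0327) on the lower side, and ETS1 (0.33, adjusted p = 0.0475) and VEGFA (0.24, adjusted p = 0.0475) on the higher side. KLF2 and ETS1 were picked for naming with their values in view.

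The ligands and receptors around KDR and TIE1 gave 0 calls among 10 tested genes, with a median log2 fold change of -0.24. VEGFB changed by 0.03 (SE 0.04), PGF by -0.33 (SE 0.30) and ANGPT2 by -0.83 (SE 0.59, limma adjusted p = 0.375). The receptors TEK, the partner of TIE1, and FLT1 were named after their values were seen, with -0.33 (SE 0.17) and -0.14 (SE 0.17), neither called.

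Relatives of the 10 genes by family were looked at next. Of 17 SOX genes outside SOX17 and SOX18, 7 were tested and all 7 had a log2 fold change above 0, with a median of 0.14. Of them, SOX30, a germ cell SOX factor, was called higher (0.61, SE 0.16, limma adjusted p = 0.0687), while its other probe gave 0.02 (SE 0.19). SOX7, the remaining member of the SOXF group, was above background on no array. Of 14 relatives of the surface and secreted proteins, 9 were tested and 0 called, with a median of -0.27 and 7 of the 9 below 0. Over all tested genes, 49.1% were below 0. CD93 and THBD, of the same C-type lectin family as CLEC14A, gave -0.79 (SE 0.43) and -0.83 (SE 0.49), each above background on 1 IL-17A array and all 3 controls, and were picked for naming with their values in view. Among the brightest, EGFL8, the closest relative of EGFL7, changed by -0.02 (SE 0.04), and the multimerin relatives EMILIN1, EMILIN2 and EMILIN3 by 0.18, 0.11 and -0.35. EMILIN3 passed a limma adjusted p (0.0349) but not the 1.5-fold threshold.

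ADGRL4, an adhesion receptor of the endothelium also known as ELTD1, was called lower by 1 of its probes. The study lists it as down in these arrays, as it does EMCN, SOX17 and MMRN1. The called ADGRL4 probe read 3.70, 3.04 and 3.09 in the controls and 2.38, 2.45 and 2.24 with IL-17A. Its log2 fold change was -0.92 (SE 0.19, limma adjusted p = 0.0475) without overlap. The other probe was above background on 1 array of each group, its groups overlapped, and it was not tested.

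**Figure D4:**
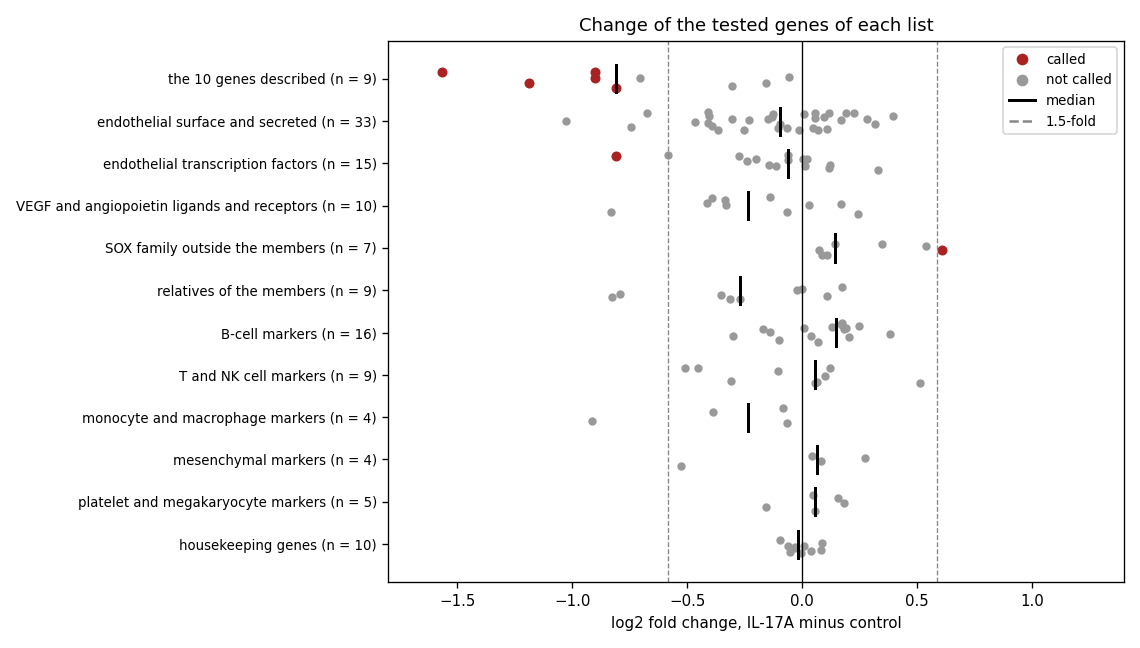
Log2 fold change (IL-17A minus control) of each tested gene, by list, with the number of tested genes in brackets, red points for called genes, black lines for medians, and dashed lines at 1.5-fold. The genes described here had a median of -0.81, the endothelial surface list -0.10, and the SOX family outside them 0.14. The genes described here were selected on these arrays, and genes that the study names were kept out of the lists.

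The labelled cell type was checked with B-cell markers, of which 16 of 16 were above background on all 6 arrays and 0 were called. Their control means ran from 3.67 (PAX5) to 15.04 (TCF3). The median log2 fold change of these markers was 0.15, with 12 above 0 and 4 below, while 49.1% of all tested genes were below 0. Their summed signal was 131070 to 131710 with IL-17A and 119230 to 126900 in the controls. PRDM1 (0.38, limma adjusted p = 0.0327) passed the adjusted p but not the 1.5-fold threshold, and was picked for naming with its values in view. Being above background separates cell types poorly here, since it also held on all 6 arrays for 9 of the 12 T and NK cell markers on the arrays. Markers of other cells were mixed. Of 13 T and NK cell markers, 9 were tested, 0 were called, and their summed signal was 1123 to 1215 with IL-17A and 1301 to 1489 in the controls. That difference came mostly from CD4, which changed by -0.31 (SE 0.08). The median log2 fold change of the 9 was 0.06, with 5 above 0, among them CD2 (0.51) and CD3G (0.12). The 4 below 0 were CD4, CD8A (-0.51), CD3E (-0.46, limma adjusted p = 0.0401) and CD3D (-0.11). The groups did not overlap for CD4, CD8A and CD3E. These genes were picked for naming with their values in view. Of 12 monocyte and macrophage markers, 4 were tested, 0 were called, and their summed signal was 120 to 125 with IL-17A and 136 to 178 in the controls, with CSF1R, CD163, S100A8, S100A9 and MRC1 above background on no array. All 4 tested monocyte markers had a log2 fold change below 0, with a median of -0.24. The part of any of these lists in the result was not tested.

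Of 12 mesenchymal markers, 4 were tested and 0 called, their sum was 46.9 to 52.4 with IL-17A and 45.4 to 51.7 in the controls, and COL1A2, COL3A1, DCN, LUM, THY1, PDGFRA, POSTN and FAP were above background on no array. Of 12 platelet markers, which bear on MMRN1 and PECAM1, 5 were tested and 0 called, and PPBP, PF4, ITGB3, TUBB1, NFE2 and TREML1 were above background on no array. The platelet sum of 43302 to 46260 with IL-17A and 47731 to 53868 in the controls came mostly from GP1BB, whose transcription unit overlaps that of SEPTIN5, and which changed by -0.16 (SE 0.06). The part of this sum in the MMRN1 difference was not tested. In bulk RNA, fewer cells that express a gene and less RNA per cell cannot be told apart. Of 10 housekeeping genes, 0 were called, with a median of -0.02.

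The mean centred profile of the 9 tested genes was 0.43, 0.34 and 0.33 on the control arrays and -0.28, -0.36 and -0.46 on the IL-17A arrays. Among 14710 named genes compared, the profiles most like it over the 6 arrays were those of EEF1E1, LINC00626, SCAMP5, KBTBD13 and WBP11, with Pearson r from 0.997 to 0.998. These genes were chosen by their likeness, so the correlation is a description of 6 arrays in 2 groups. EEF1E1, a component of the multi-tRNA synthetase complex, read 10.80, 10.78 and 10.74 with IL-17A and 10.99, 10.97 and 10.96 in the controls, so its profile was alike in order but much flatter.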

How the data were processed

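Total RNA of 6 SU-DHL-2 samples was measured on 1-colour 4x44K arrays. Per the file headers, the deposited intensity of each spot was extracted with Agilent Feature Extraction 11.0.1.1 and background-subtracted, with no normalization between arrays, beside flags of 0 or 1. The authors also deposited a table of quantile-normalized log2 values with a floor of 2.32 to 2.33, used as an alternative. Here, control spots and the spots flagged as non-uniform, 4 to 25 per array, were left out. Intensities below 1 were set to 1, log2 values of replicate spots were averaged, and the arrays were quantile normalized. On the arrays, 23570 to 24077 of 34127 probes were above background and 0 spots were saturated. The number of arrays limits the precision. Named through RefSeq accessions were 25771 probes. The 23945 probes above background on at least 3 of 6 arrays were tested with limma 3.58.1 (R 4.3.3), IL-17A minus control, two-sided, with Benjamini-Hochberg adjustment over all of them. The brightest tested probe, by its mean over the arrays, stood for a gene. An exact permutation test of 3 arrays against 3 cannot give a p below 0.1, so none was used. The procedure was tested on simulated data.

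The 10 genes and the 11 gene lists were chosen with earlier results of these data known. Genes that the study names for these arrays were kept out of the lists. Named in the text are all 10 genes with every probe, ADGRL4, of each list the called genes or up to 4 of those with the highest signal, and the 5 genes most like the mean profile, with exceptions marked where they occur. For lists of cell type markers, the genes above background on no array and the sums are given in place of the brightest genes. Alternatives were the 75th percentile scaling, no normalization, normexp with an offset of 50, the authors' table, other detection filters, a floor on dim signals at each array's detection limit, eBayes with a trend, a replicate block, the methods' test, the scan as a block or alone, the mean over a gene's probes, other thresholds, and each array left out in turn.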

Additional observations from a re-analysis of the deposited data

How the results depend on the processing

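The count of the 10 genes called lower, 5 in the reported analysis, was 0 with normexp, 3 with the adjusted p, 2 when the threshold was 2-fold, and between 4 and 6 in every other alternative, with 5 to 6 when 1 array was left out. The 6 came without IL-17A replicate 2, which added SOX18 although neither remaining IL-17A array was above background for it. None of the 10 was called higher in any alternative. With normexp the log2 fold changes were -0.39 for CLEC14A, -0.37 for EGFL7, -0.25 for MMRN1, -0.16 for SOX17 and -0.13 for EMCN. Of all tested probes, 17 were called in that setting. Its offset of 50 is of the order of the signals of the called genes or above them. The setting also started from median spot signals with their own background values, and the part of the offset was not tested. Of the 9 tested genes, only TIE1 had values above 0, in 5 alternatives, with a range of -0.25 to 0.28.

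The endothelial list, with 1 gene called lower in the reported analysis, had 2 with the 75th percentile scaling, with no normalization, within 1 scan and with the mean over a gene's probes, and 0 with normexp, with the methods' test, with the adjusted p and at a 2-fold threshold. With 1 array left out it had 0 to 2, which was 0 without control replicate 1 and without control replicate 3, and 2 without IL-17A replicate 1. Its count called higher, 0 in the reported analysis, was 1 with scan as a block and within 1 scan, and 0 to 1 with 1 array left out, with 1 gene without control replicate 3. The cause was not tested.

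Whether the replicate numbers pair the samples is not known from the labels. Same-numbered samples deviated from their group means with correlations of -0.087, -0.0022 and -0.047, and differently numbered ones with -0.048 to 0.078. No deviation shared by number was thus seen. With a replicate block, 5 of the 10 genes and 2 of the endothelial list were called lower. Over all probes, 241 were called higher and 281 lower (53.8% lower), against 150 and 422 with the 75th percentile scaling (73.8%). Without normalization the split was 186 and 426 (69.6%), and with scan as a block 260 and 509 (66.2%). Signals at or near background limit KDR, which was not tested, and EMCN, SOX18 and TIE1, each not above background on at least 1 array.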
